A study of Mus musculus with 12 samples.

Results

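The effect of Cflar loss in hepatocytes was set against the effect of Fgf18 overexpression in hepatocytes, gene by gene, in whole mouse liver. The compared features were the genes whose symbol occurred in both read count tables, 18924 symbols of the 38024 found in either table (31663 in the one and 25285 in the other). For each of them the change from CflarFF to CflarLKO livers (CflarLKO effect), the change from non-Tg to Fgf18 Tg livers (Fgf18 Tg effect) and the difference of the changes (CflarLKO effect minus Fgf18 Tg effect) were estimated on the log2 scale in 1 fit. Of the shared genes, 13956 had enough reads to be tested.

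The 12 libraries formed 4 groups of 3 mice, all on a C57BL/6 background. CflarFF mice carried a loxP-flanked exon 1 of Cflar, and CflarLKO mice carried in addition Alb-Cre, a transgene that expresses Cre recombinase from the albumin promoter and so acts in hepatocytes. Both groups were females, 8 weeks old at the start, kept for 28 days on a choline-deficient diet with 0.15% DL-ethionine in the drinking water (CDE diet). Fgf18 Tg mice carried Alb-Cre with a Cre-dependent CAG-driven Fgf18 cassette in the Rosa26 locus, and they and their non-Tg controls received a normal diet and were analysed at 8 weeks of age. CflarLKO and Fgf18 Tg mice thus shared Alb-Cre, which the sources used here do not give for either control group. Diet, age, sex, sequencing depth and the gene table differed between the experiments, so none of these can be told apart from the genetic change in any difference below.

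Cflar encodes cFLIP, which restrains the activation of caspases downstream of death receptors, and hepatocytes that lack it die more readily. FGF18 is a secreted fibroblast growth factor that signals through receptor tyrosine kinases on neighbouring cells. In injured liver, hepatic stellate cells turn into matrix-producing myofibroblasts, bile duct-like cells multiply, monocytes enter the tissue and hepatocytes lose part of their metabolic program. In whole tissue, fewer cells of a type and less RNA per cell cannot be told apart.

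Levels below are normalized counts, read counts scaled by the TMM method of edgeR to the mean effective library size within each experiment, and they are therefore comparable within an experiment only. A call means an adjusted p under 0.05 (Benjamini-Hochberg over the 13956 genes) in the quasi-likelihood test of edgeR, and effects are given on the log2 scale ± SE. The libraries of the CDE diet experiment held 6487178 to 10414883 reads and those of the normal diet experiment 1136680 to 3089872. The median SE was 0.20 for the CflarLKO effect and 0.29 for the Fgf18 Tg effect. Xist had 2694 to 4458 reads in the CDE diet libraries and 0 to 4 in the others, whereas the Y-linked Ddx3y had 0 to 3 and 59 to 187. The animals of the experiments thus differed in sex, which the labels give for the CDE diet only. One control library stood apart from its group, CflarFF replicate 2, in which albumin took 3.26% of reads against 9.02% and 5.74% in the other CflarFF libraries. Without it, 464 genes were called with the CflarLKO effect above and 611 with it below, against 184 and 248 when it was kept.

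The targeted genes were read first. Cflar was at 585, 605 and 709.9 normalized counts in CflarFF, 461, 458 and 477 in CflarLKO, 168, 153 and 184 in non-Tg and 122, 126 and 109 in Fgf18 Tg livers. The groups did not overlap in either experiment, and Cflar was lower in both (CflarLKO effect -0.45 ± 0.12, adjusted p = 0.008, Fgf18 Tg effect -0.49 ± 0.14, adjusted p = 0.019, difference 0.05, 95% interval -0.34 to 0.44). The Fgf18 Tg call was lost in 3 of the 12 fits that each left out 1 library (adjusted p 0.0504 to 0.0853), namely those without NonTg replicate 1, NonTg replicate 3 or Fgf18 Tg replicate 3. With scaling to library size alone both effects were near 0 (-0.0037 and -0.019). The count covers the whole gene and not exon 1 alone. Fgf18 had 0, 0 and 1 reads in CflarFF, 6, 7 and 3 in CflarLKO, 191, 63 and 90 in non-Tg and 9564, 5725 and 2803 in Fgf18 Tg livers. It rose by 5.21 ± 0.26 in Fgf18 Tg livers (adjusted p = 4.7e-08). In the CDE diet experiment the ratio of the group sums was 12.3 with a counting interval from 1.91 to 517. Such intervals cover counting error only, since reads were amplified without molecular identifiers. The CflarLKO call (adjusted p = 0.028) was lost in 4 of the 12 fits that each left out 1 library (adjusted p 0.0506 to 0.127).

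More genes were called with Cflar loss than with Fgf18. CflarLKO livers had 2702 genes higher (19.4% of those tested) and 2357 lower (16.9%), and Fgf18 Tg livers 1009 higher (7.23%) and 1229 lower (8.81%). The gap was smaller with the deeper CDE diet libraries thinned to 1984942 reads each (1769 higher and 1594 lower against 1028 and 1114). It was also smaller by limma-trend on the deposited normalized signal (2079 and 1620 against 1572 and 1448). Most genes called in Fgf18 Tg livers were called in the same direction in CflarLKO livers. Of the genes tested, 712 (5.1%) were higher in both, which is 26.4% of the genes higher in CflarLKO and 70.6% of those higher in Fgf18 Tg. Another 724 (5.19%) were lower in both, which is 30.7% and 58.9%. The effects went in opposite directions in 47 genes, 21 (0.15%) higher with Cflar loss and 26 (0.186%) lower. The difference itself was called in 432 genes, in 184 (1.32%) with the CflarLKO effect above the Fgf18 Tg effect and in 248 (1.78%) with it below. The values of the groups did not overlap in 47.9% of all tested genes in the CDE diet experiment and in 35.7% in the other. Across the tested genes the effects had a Pearson r of 0.53 and a Spearman rho of 0.54. This is a description only, since genes are not independent replicates and each effect carries the error of its own libraries.

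**Figure D1:**
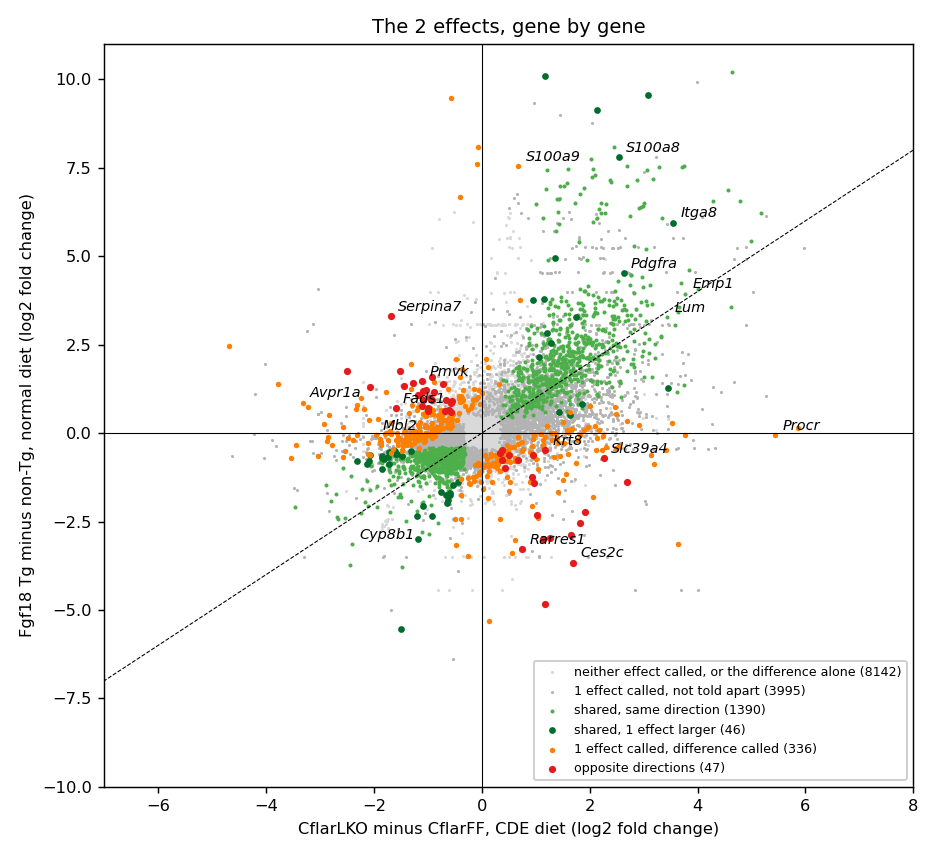
Effect of Cflar loss (x axis, log2 of CflarLKO over CflarFF, CDE diet) against the effect of Fgf18 overexpression (y axis, log2 of Fgf18 Tg over non-Tg, normal diet), with 1 point a gene and colours for the classes of genes. Points lie along the diagonal where the effects were alike and towards the upper left and the lower right where they were opposite. The rows of points at large positive values of the y axis are genes with 0 reads in non-Tg livers, whose fitted value depends on a prior count. One gene lies outside the axes.

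The counts moved with the scaling and with single libraries. With library size alone, the median effects over all genes shifted to 0.45 and 0.49 and the calls to 6224 higher and 742 lower in CflarLKO and 3623 higher and 237 lower in Fgf18 Tg livers. A change is therefore described below relative to the median gene. The difference between the effects was less tied to the scaling, with 134 genes above and 281 below in that fit. Leaving out 1 library gave 88 to 464 genes above and 134 to 611 below, with the highest counts without CflarFF replicate 2. Leaving out any CflarLKO, non-Tg or Fgf18 Tg library gave 88 to 120 genes above, and leaving out CflarFF replicate 1, any non-Tg library or Fgf18 Tg replicate 1 or 2 gave 134 to 163 below. Without NonTg replicate 2, Fgf18 Tg livers had 596 genes higher and 755 lower, of which 459 and 462 were called likewise in CflarLKO livers. No gene of the 432 changed the sign of its difference in any of the 23 alternatives, and 151 kept the call in all 12 fits that left out 1 library.

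Many extracellular matrix genes rose in both models. Loxl1, which cross-links elastin, was at 18.7, 31.7 and 9.43 normalized counts in CflarFF, 262, 295 and 222 in CflarLKO, 1.11, 1.35 and 3.47 in non-Tg and 39.8, 37.1 and 36.8 in Fgf18 Tg livers. Every CflarLKO library was above every CflarFF library and every Fgf18 Tg library above every non-Tg library, with effects of 3.69 ± 0.28 (adjusted p = 1.6e-08) and 4.23 ± 0.68 (adjusted p = 6.5e-06). Mrc2, a receptor that takes up collagen fragments, was at 24.1, 58.8 and 35.4 in CflarFF, 618, 464 and 395 in CflarLKO, 4.43, 8.12 and 8.09 in non-Tg and 73.1, 100 and 66.3 in Fgf18 Tg livers. It too was separated in both experiments, and its effects of 3.65 ± 0.26 and 3.56 ± 0.46 (adjusted p = 5.7e-08 and 8.9e-06) differed by 0.09 (95% interval -1.03 to 1.21). Lum, the collagen-binding proteoglycan lumican, rose by 3.44 ± 0.21 and 3.28 ± 0.34 (adjusted p = 1.5e-08 and 1.4e-06), and Emp1, an epithelial membrane protein, by 3.77 ± 0.27 and 3.94 ± 0.53 (adjusted p = 8e-08 and 8.9e-06). Each of these 4 genes kept both calls in all 12 fits that left out 1 library.

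Col3a1, a chain of fibrillar collagen, was among the more precise members. It was at 379, 505 and 298 normalized counts in CflarFF, 1826, 1707 and 1636 in CflarLKO, 46.5, 73 and 71.7 in non-Tg and 216, 278 and 318 in Fgf18 Tg livers. The groups were apart in both experiments and the effects of 2.13 ± 0.18 (adjusted p = 2.4e-07) and 2.08 ± 0.21 (adjusted p = 3.3e-06) left a difference of 0.05, whose 95% interval of -0.55 to 0.64 lies within a factor of 2 either way. Of the 28 tested genes that build collagen fibrils, 21 were higher and 1 lower in CflarLKO livers and 17 were higher in Fgf18 Tg livers, and all 17 were higher in both. Their median effects were 1.52 and 2.09, against 0.01 and 0.02 over all genes. Within the list, the fibril-associated chains had medians of 1.83 and 3.57 (5 of 6 tested members higher in both) and the processing enzymes and chaperones 0.37 and 0.56 (4 of 11 higher in both). Only 1 of the 17 had an interval of the difference within a factor of 2, Col3a1, and the other 16 were unresolved.

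The neighbouring lists moved the same way. Of the 16 tested elastic fibre genes, 15 were higher in CflarLKO and 10 in Fgf18 Tg livers, all 10 in both, and 7 without NonTg replicate 1. Emilin1, a glycoprotein of elastic fibres, rose by 1.98 ± 0.15 and 2.71 ± 0.22 (adjusted p = 4.4e-08 and 9.4e-08). Of 25 basement membrane genes, 19 were higher and 2 lower in CflarLKO and 11 were higher in Fgf18 Tg livers (7 without NonTg replicate 1). Of 22 matrix proteases and their inhibitors 9 were higher and 1 lower in both. Mmp2, which degrades basement membrane collagen and gelatin, rose by 2.98 ± 0.22 in CflarLKO and 4.41 ± 0.51 in Fgf18 Tg livers (adjusted p = 2.3e-08 and 3.5e-07), a difference of -1.43 that was not called (95% interval -2.60 to -0.26, adjusted p = 0.15). Among 16 myofibroblast and contractile genes 11 were higher and 1 lower in CflarLKO and 7 were higher in Fgf18 Tg livers. Pdgfrb, the PDGF receptor of stellate cells and fibroblasts, rose by 2.37 ± 0.21 and 2.41 ± 0.34 (adjusted p = 3e-07 and 3.8e-05, difference -0.04, 95% interval -0.88 to 0.80). The summed level of the 5 stellate cell markers (Lrat, Reln, Dcn, Colec11 and Ecm1) rose in both models, and its part in these lists was not tested. It was 2670 to 3930 normalized counts in CflarFF, 4440 to 6630 in CflarLKO and, with the normal diet, 302 to 437 in non-Tg against 849 to 1060 in Fgf18 Tg livers. Of the 5 markers 1 was called higher (Dcn) and 1 lower (Ecm1) in CflarLKO livers, and 3 were called higher in Fgf18 Tg livers. In the wider list of 20 tested stellate cell genes, 9 were higher and 5 lower in CflarLKO and 10 higher and 3 lower in Fgf18 Tg livers.

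Several genes of monocyte-derived macrophages and of class II antigen presentation were also higher in both. All 21 tested macrophage genes were higher in CflarLKO livers and 9 of them in Fgf18 Tg livers, with medians of 1.58 and 1.67. Lyz2, the lysozyme of myeloid cells, was at 511, 998 and 576 normalized counts in CflarFF, 2441, 2031 and 1910 in CflarLKO, 39.8, 33.8 and 39.3 in non-Tg and 159, 157 and 146 in Fgf18 Tg livers. Both pairs of groups were apart, with effects of 1.62 ± 0.19 and 2.03 ± 0.25 (adjusted p = 5.9e-06 and 1.9e-05). Cx3cr1, a chemokine receptor of monocytes and macrophages, rose by 3.32 ± 0.29 and 2.73 ± 0.67 (adjusted p = 3.3e-07 and 0.0032). H2-Ab1, a chain of the class II molecule that presents peptides to helper T cells, rose by 2.23 ± 0.16 and 2.44 ± 0.24 (adjusted p = 2.8e-08 and 9.8e-07). The difference for H2-Ab1 was -0.20 with an interval of -0.81 to 0.41. The summed level of the 5 markers Ccr2, Cx3cr1, Trem2, Gpnmb and Itgax was 129 to 219 in CflarFF, 958 to 1330 in CflarLKO and, with the normal diet, 5.41 to 13.3 in non-Tg against 60.1 to 82 in Fgf18 Tg livers, and how far it bears on these genes was not tested. By contrast, the summed level of the Kupffer cell markers Clec4f, Vsig4, Timd4, Cd5l and Marco overlapped between the groups of each experiment (2120 to 2890 and 2480 to 2890, and 227 to 308 and 166 to 243). Of these 5 markers 1 was called lower in CflarLKO livers. Of 14 tested Kupffer cell genes 3 were lower in CflarLKO and 2 in Fgf18 Tg livers (16.9% and 8.81% of all genes tested), and 0 were higher in either.

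**Figure D2:**
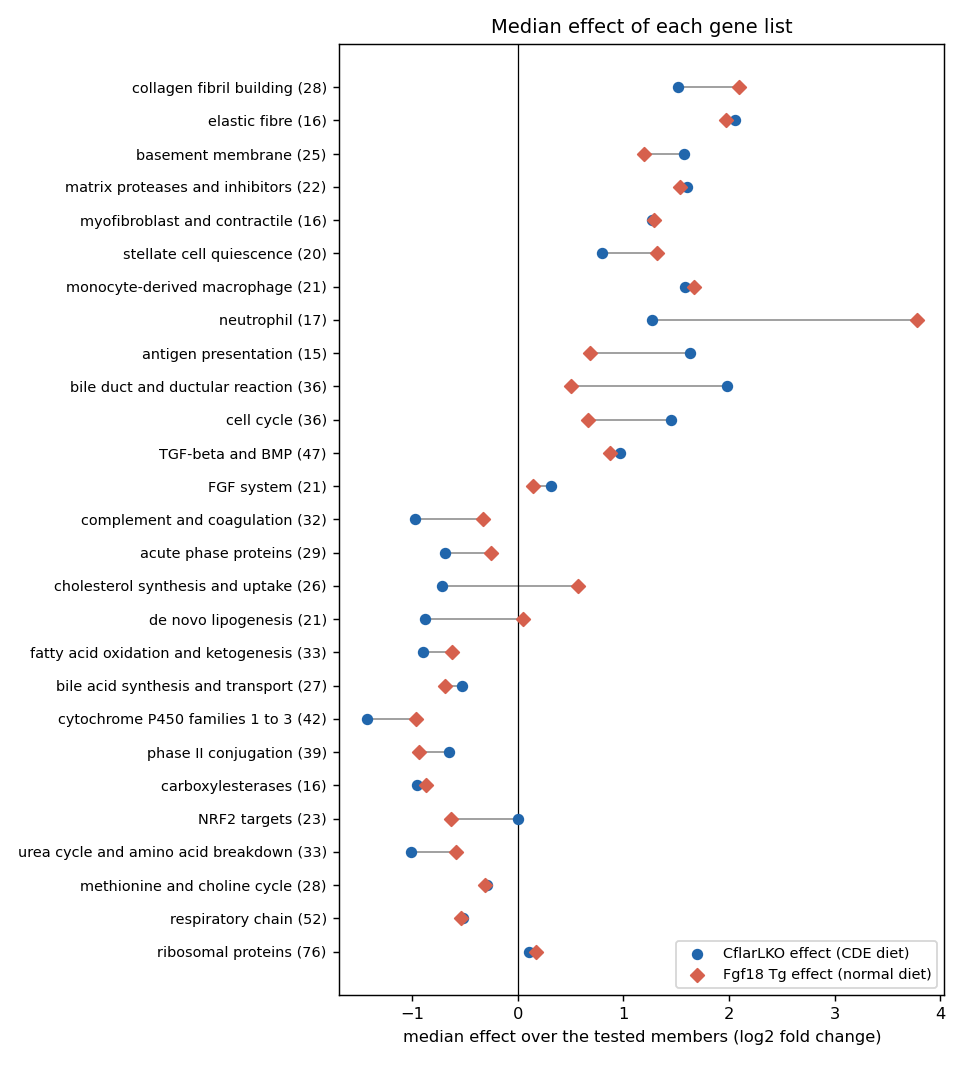
Median effect of the tested members of each gene list (x axis, log2) in CflarLKO against CflarFF livers and in Fgf18 Tg against non-Tg livers, with 1 row a list. Genes with 0 reads in a group were set at the bound that 3 reads over the group allow, and the vertical line marks 0. Collagen fibril genes sit above 0 and respiratory chain genes below 0 in both models, whereas the median of the cholesterol genes is negative in CflarLKO and positive in Fgf18 Tg livers.

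Many respiratory chain genes were lower in both models. Ndufb9, a subunit of complex I, was at 2948, 3509 and 3671 normalized counts in CflarFF, 1957, 1965 and 1905 in CflarLKO, 594, 653 and 636 in non-Tg and 308, 342 and 301 in Fgf18 Tg livers. The groups were apart in both experiments, and Ndufb9 fell by 0.80 and 0.98 (adjusted p = 0.0001 and 6.6e-05, difference 0.19, 95% interval -0.20 to 0.58). Cyc1, the cytochrome c1 subunit, had effects of -0.77 ± 0.16 and -1.04 ± 0.16 (adjusted p = 0.0011 and 0.00027), and Atp5b, the catalytic beta subunit of ATP synthase, -0.60 ± 0.15 and -0.65 ± 0.15 (adjusted p = 0.0036 and 0.0059). Of the 52 tested respiratory chain genes, 36 were lower in CflarLKO and 35 in Fgf18 Tg livers, with medians of -0.52 and -0.54, but only 4 and 3 were lower when libraries were scaled to their size alone. Of the 31 genes lower in both, all 31 had an interval of the difference within a factor of 2, a bound wider than the median effects. The fit without NonTg replicate 2 left 20 lower in Fgf18 Tg livers and 19 lower in both. No respiratory chain gene was called for the difference by edgeR, DESeq2 or limma-trend, and at an unadjusted p under 0.05 edgeR gave 1 above and 0 below.

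Many cytochrome P450 and bile acid genes fell in both models. Cyp8b1, the hydroxylase required for cholic acid, was at 2519, 817 and 2158 normalized counts in CflarFF, 318, 325 and 390.4 in CflarLKO, 557, 487 and 334 in non-Tg and 63.6, 48.6 and 39.8 in Fgf18 Tg livers. CflarLKO and Fgf18 Tg livers were below their controls in every library, with effects of -2.41 ± 0.36 (adjusted p = 0.0008) and -3.14 ± 0.42 (adjusted p = 0.0011). Slc27a5, the ligase that activates bile acids for conjugation, was at 2442, 2432 and 2337 in CflarFF, 1055, 957 and 1204 in CflarLKO, 1382, 1348 and 1339 in non-Tg and 708, 667 and 613 in Fgf18 Tg livers. Its values were tight within groups and apart between them, and its effects of -1.17 ± 0.13 and -1.03 ± 0.13 (adjusted p = 3e-06 and 3.9e-05) differed by -0.13 (95% interval -0.53 to 0.26). Of 27 tested bile acid genes, 13 were lower and 2 higher in CflarLKO and 16 were lower in Fgf18 Tg livers, 10 of them lower in both (6 without Fgf18 Tg replicate 2). With library size alone 8 were lower and 6 higher in CflarLKO, 6 lower and 1 higher in Fgf18 Tg livers and 3 lower in both. All 7 of the synthesis enzymes called lower in CflarLKO livers, of 11 tested, were lower in Fgf18 Tg livers as well.

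Of 42 tested P450 genes of families 1 to 3, 31 were lower and 1 higher in CflarLKO and 23 were lower and 1 higher in Fgf18 Tg livers, with medians of -1.43 and -1.06 (-0.96 with genes without reads in a group at their bound) and 16 lower in both. Scaling to library size alone left 10 lower in both. Cyp3a44 had effects of -2.69 ± 0.25 and -2.38 ± 0.30 (adjusted p = 5.4e-06 and 0.00017) and Cyp2c50 of -2.17 ± 0.38 and -1.94 ± 0.38 (adjusted p = 0.0018 and 0.009). The Cyp2c, Cyp2d, Cyp3a and Cyp4a genes, the carboxylesterases, the sulfotransferases and the major urinary proteins have near-identical copies, between which reads may have been split. Of the 33 tested genes of fatty acid oxidation and ketogenesis 14 were lower in both (1 with library size alone, and 8 without NonTg replicate 2). Hnf4a, a nuclear receptor that maintains hepatocyte gene expression, fell by 0.98 and 0.66 (adjusted p = 3.8e-05 and 0.005), the latter -0.18 and not called with library size alone. The summed level of the hepatocyte markers Alb, Apoa1, Ttr, Cyp2e1 and Cps1 was 424000 to 1130000 in CflarFF, 240000 to 319000 in CflarLKO and, with the normal diet, 203000 to 221000 in non-Tg against 158000 to 194000 in Fgf18 Tg livers. Of these 5 markers 4 were called lower in CflarLKO and 1 in Fgf18 Tg livers, and 1 was called for the difference. The part of this sum in the falling lists was not tested.

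More falling than rising genes had an interval of the difference within a factor of 2, and their read counts differed too. Of the 724 genes lower in both, 567 had a 95% interval of the difference within a factor of 2, 128 were unresolved, 16 fell more in CflarLKO and 13 more in Fgf18 Tg livers. Of the 712 genes higher in both, 125 were within a factor of 2, 570 unresolved, 4 rose more in CflarLKO and 13 more in Fgf18 Tg livers. The 567 had median effects of -0.65 and -0.67, and the 125 had 1.01 and 0.94. The bound of 1 log2 unit exceeds the median falls, so it cannot show that the falls were alike in size. The genes lower in both had a median of 210 reads a library in non-Tg livers and a median SE of the difference of 0.22. Those higher in both had 4.17 reads and an SE of 0.53, and 53 of them had a group without reads and so no interval.

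**Figure D3:**
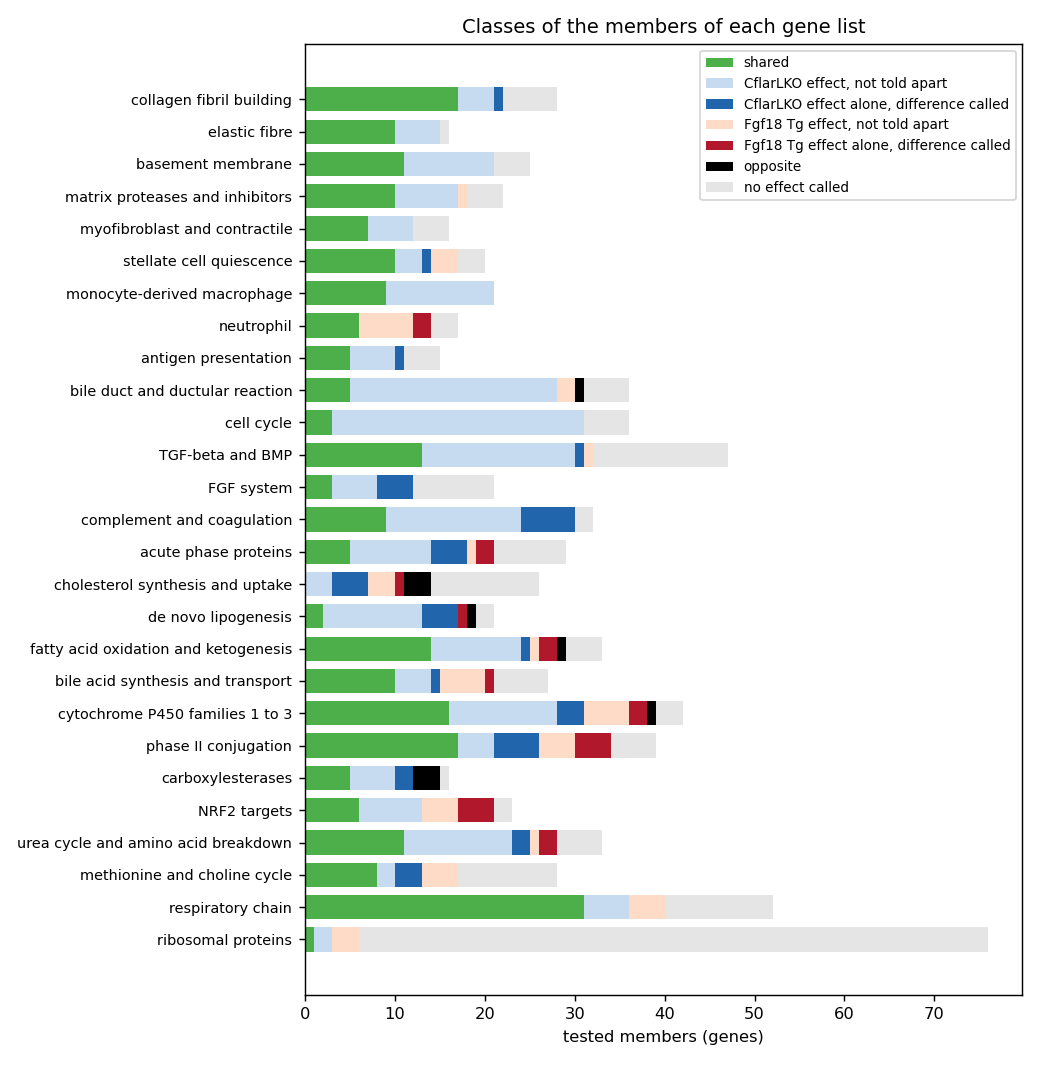
Number of tested members of each gene list (x axis, genes) by class, with 1 bar a list and 1 colour a class. A member is shared where both effects were called in the same direction, opposite where both were called in opposite directions, and not told apart where 1 effect was called and the difference was not. Of the respiratory chain genes 31 were shared and none was opposite, whereas of the cholesterol genes 3 were opposite and none was shared.

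Some genes moved the same way by unequal amounts. Itga8, an integrin chain of stellate cells and fibroblasts, was at 39.5, 72.8 and 41.3 normalized counts in CflarFF, 624, 616 and 561 in CflarLKO, 3.32, 2.71 and 1.16 in non-Tg and 137, 178 and 134 in Fgf18 Tg livers. It was higher in every library of both models, and the rise of 5.95 ± 0.57 in Fgf18 Tg livers exceeded that of 3.55 ± 0.20 in CflarLKO livers (difference -2.40, 95% interval -3.65 to -1.14, adjusted p = 0.012). The difference was not called without NonTg replicate 3 (adjusted p = 0.0658), and non-Tg livers had 1.16 to 3.32 normalized counts. Pdgfra and Lamb1, a PDGF receptor of fibroblasts and a laminin chain, also rose more in Fgf18 Tg livers (2.63 against 4.52, and 1.74 against 3.29, adjusted p = 0.044 and 0.036 for the differences). Pdgfra lost this call in 9 of the 12 fits that each left out 1 library (adjusted p 0.0556 to 0.148) and Lamb1 in 7 of the 12 fits that each left out 1 library (adjusted p 0.0515 to 0.11).

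More neutrophil genes were called higher with Fgf18 than with Cflar loss, and some rose further. S100a8, a calcium-binding protein stored by neutrophils, was at 4.39, 4.7 and 3.54 normalized counts in CflarFF, 30.8, 22.2 and 22.8 in CflarLKO, 1.11, 0 and 0 in non-Tg and 82.6, 72.5 and 143 in Fgf18 Tg livers. Both models were above their controls in every library. From 1 read in non-Tg livers to 318 in Fgf18 Tg livers the ratio was 228 with a counting interval from 40.7 to 9050, while the CflarLKO effect was 2.55 ± 0.50 (adjusted p = 0.00012). The difference was called (adjusted p = 0.0095), also in all 12 fits that left out 1 library. Its partner S100a9 went from 2 to 516 reads (ratio 185, counting interval 51 to 1530), and its CflarLKO effect of 0.68 ± 0.54 was not called (adjusted p = 0.34, adjusted p for the difference = 0.0037). Mpo, the granule enzyme myeloperoxidase, had 97 reads in Fgf18 Tg livers and none in non-Tg livers, at least 23.2-fold higher against a floor of 3 reads over the group. Of 17 tested neutrophil genes 6 were higher in CflarLKO and 14 in Fgf18 Tg livers, against 19.4% and 7.23% of all genes tested. A group had no reads in 8 of the 17 with the normal diet and in 3 with the CDE diet. Such genes passed the filter for low counts only through other groups, so these counts are a description only. The sum of the markers S100a8, S100a9, Ly6g, Retnlg and Cxcr2 was 64.7 to 81.1 in CflarFF, 108 to 132 in CflarLKO and, with the normal diet, 16.2 to 22.1 in non-Tg against 234 to 436 in Fgf18 Tg livers. Its part in the differences between the effects was not tested.

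Among the genes that fell in both models, the larger fall was on either side. C8b, a chain of the terminal complement complex, was at 453, 295 and 524 normalized counts in CflarFF, 98.7, 132 and 124 in CflarLKO, 733, 856 and 695 in non-Tg and 528, 422 and 442 in Fgf18 Tg livers. The groups were apart in both experiments, and the fall in CflarLKO livers (-1.85 ± 0.19, adjusted p = 9.5e-07) was larger than that in Fgf18 Tg livers (-0.71 ± 0.18, adjusted p = 0.011). The difference was -1.14 (95% interval -1.68 to -0.59, adjusted p = 0.02). Its call was lost without NonTg replicate 1, NonTg replicate 3 or Fgf18 Tg replicate 1 (adjusted p 0.0535 to 0.0675), and the call in Fgf18 Tg livers without NonTg replicate 2 (adjusted p = 0.0562) and with library size alone. Slc10a1, the sodium-dependent bile acid importer, fell by 2.13 in CflarLKO and 0.88 in Fgf18 Tg livers, but the call for its difference (adjusted p = 0.043) was lost in 11 of the 12 fits that each left out 1 library (adjusted p 0.0576 to 0.11). In the other direction, Acaa1b, a peroxisomal thiolase, was at 19110, 20860 and 21440 in CflarFF, 14780, 13280 and 12780 in CflarLKO, 1134, 1590 and 1150 in non-Tg and 403, 413 and 342 in Fgf18 Tg livers. It was lower in every library of both models and fell more in Fgf18 Tg livers (-0.59 ± 0.16 and -1.74 ± 0.16, difference 1.15, 95% interval 0.67 to 1.63, adjusted p = 0.0083), a call kept in all 12 fits. Cyp2c29, chosen after its values were seen, had effects of -0.92 ± 0.21 and -2.34 ± 0.21 (difference 1.42, adjusted p = 0.012). Aldh1a1, which oxidises retinaldehyde, had effects of -1.19 ± 0.21 and -2.34 ± 0.21, with a difference (adjusted p = 0.038) that was lost in 9 of the 12 fits that each left out 1 library (adjusted p 0.0517 to 0.121).

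**Figure D4:**
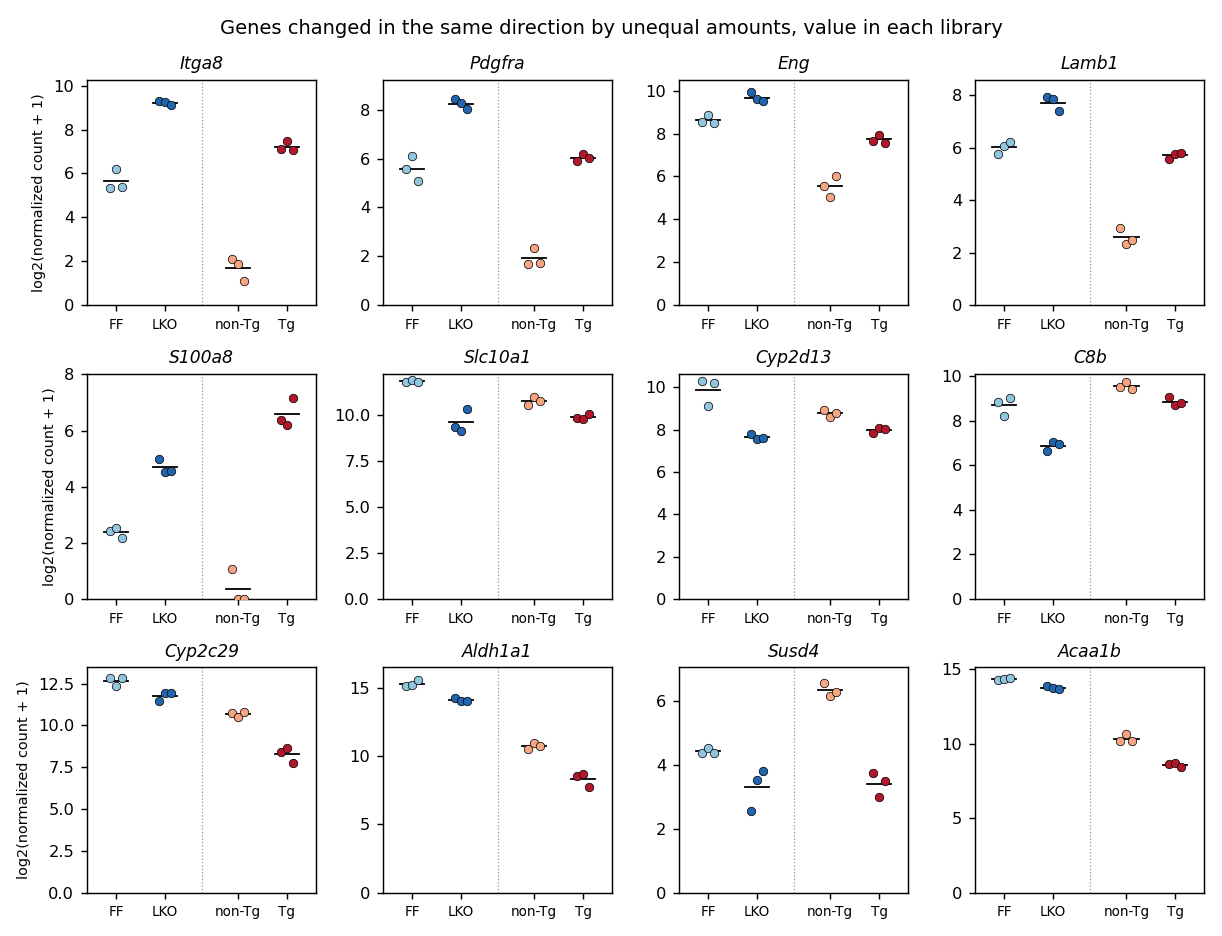
Normalized counts in each library (y axis, log2 of the normalized count plus 1) for 12 genes whose effects had the same direction and unequal sizes, with 1 panel a gene, 1 point a library and bars at the group means. Levels can be compared within each experiment only. Itga8 and S100a8 rise more from non-Tg to Fgf18 Tg livers, and C8b falls more from CflarFF to CflarLKO livers.

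The 47 genes with opposite effects had absolute differences of 0.84 to 6 with a median of 2.25. All 47 were called for the difference, which is not an independent result since both effects enter it. Both opposite effects kept their calls in all 12 fits that left out 1 library for 17 of them. They did so in all 22 alternatives at the same threshold for 8, namely Ces2c, Ces2d-ps, Ces1g, Rarres1, Dsg1c, Abcd2, Pmvk and Elovl2. Without CflarFF replicate 2 there were 43 higher and 46 lower with Cflar loss. The other fits that left out 1 library gave 13 to 21 and 14 to 27. Their lowest counts came without CflarLKO replicate 1 or 3 or NonTg replicate 3 (13) and without NonTg replicate 1 (14).

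Carboxylesterases, which hydrolyse esters of drugs and lipids in hepatocytes, held 3 of the 8. Ces2c was at 171, 358 and 250 normalized counts in CflarFF, 769, 782 and 980.2 in CflarLKO, 109.5, 133 and 104 in non-Tg and 10.1, 11.5 and 2.95 in Fgf18 Tg livers. It was higher in every CflarLKO library than in any CflarFF library and lower in every Fgf18 Tg library than in any non-Tg library. The effects were 1.70 ± 0.22 (adjusted p = 3.7e-05) and -3.67 ± 0.39 (adjusted p = 5.1e-06), and the difference 5.36 (95% interval 4.41 to 6.32, adjusted p = 5.4e-06). Ces1g, an esterase of hepatic lipid metabolism, was at 885, 418 and 748 in CflarFF, 1250, 1357 and 1542 in CflarLKO, 342, 367 and 324 in non-Tg and 69.5, 76.1 and 60.4 in Fgf18 Tg livers. The groups were apart in both experiments and the effects opposite (1.02 ± 0.19 and -2.31 ± 0.22, adjusted p = 0.00061 and 2.6e-06, difference 3.33, 95% interval 2.71 to 3.95). The pseudogene Ces2d-ps had effects of 1.65 ± 0.23 and -2.88 ± 0.34 (adjusted p = 2e-05 and 4.4e-06), and reads of Ces2c could be counted there.

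Other carboxylesterases did not share this pattern. Of 16 tested, 3 were higher and 12 lower in CflarLKO and 8 were lower in Fgf18 Tg livers, and 5 were lower in both. Ces1d, a triglyceride hydrolase, was at 5385, 3784 and 4769 normalized counts in CflarFF, 1374, 1384 and 1553 in CflarLKO, 686, 893 and 920.3 in non-Tg and 291, 254 and 364 in Fgf18 Tg livers. Its groups were apart in both experiments in the same direction, and it fell by 1.69 and 1.47 (adjusted p = 6.5e-07 and 1.2e-05, difference -0.23, 95% interval -0.73 to 0.27).

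Rarres1, a gene first described as induced by retinoids, was at 337, 239 and 275 normalized counts in CflarFF, 521, 517 and 386 in CflarLKO, 255, 309.7 and 224 in non-Tg and 29.1, 23 and 28 in Fgf18 Tg livers. The rise with Cflar loss was modest (0.75 ± 0.16, adjusted p = 0.0012) and the fall with Fgf18 large (-3.29 ± 0.21, adjusted p = 5.2e-09), and neither pair of groups overlapped. In the fit of all genes its difference of 4.04 had an interval of 3.49 to 4.58 and an adjusted p of 2.3e-08. Rhbg, an ammonium transporter of hepatocytes around the central vein, was at 90, 208 and 112 in CflarFF, 613, 489 and 429 in CflarLKO, 38.7, 31.1 and 19.6 in non-Tg and 4.75, 8.85 and 5.89 in Fgf18 Tg livers. It rose by 1.91 ± 0.26 with Cflar loss and changed by -2.23 ± 0.53 with Fgf18 (adjusted p = 8e-05 and 0.0083), and the latter call was lost without Fgf18 Tg replicate 1 (adjusted p = 0.0514). Cyp2c55 had effects of 1.13 ± 0.29 and -3.00 ± 0.61 (adjusted p = 0.0095 and 0.0032), against the fall of most P450 genes in CflarLKO livers. Igf2r, the receptor that clears IGF2 and sorts lysosomal enzymes, and Spint2, an inhibitor of serine proteases, showed the same opposite pattern at smaller sizes (0.67 and -0.75, and 0.51 and -0.62). Both kept all their calls in the 12 fits, but with library size alone their Fgf18 Tg effects were -0.28 and -0.15 and were not called. Krt8, a keratin of hepatocytes and bile ducts, rose by 1.17 ± 0.14 with Cflar loss, whereas its Fgf18 Tg effect of -0.48 ± 0.15 (adjusted p = 0.033) was lost in 7 of the 12 fits that each left out 1 library (adjusted p 0.0576 to 0.117) and was 0.0020 with library size alone. Slc39a4, a zinc importer, rose by 2.27 ± 0.21 with Cflar loss, and its Fgf18 Tg effect of -0.71 ± 0.23 was lost in 6 of the 12 fits that each left out 1 library (adjusted p 0.0522 to 0.14).

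In the reverse direction, lower with Cflar loss and higher with Fgf18, was Abcd2, a peroxisomal importer of very long-chain fatty acids. It was at 328, 202 and 294 normalized counts in CflarFF, 121, 83.3 and 81.7 in CflarLKO, 28.8, 16.2 and 16.2 in non-Tg and 79.6, 78.7 and 42.7 in Fgf18 Tg livers. The groups did not overlap in either experiment, with effects of -1.51 ± 0.23 (adjusted p = 9.9e-05) and 1.75 ± 0.33 (adjusted p = 0.0013) and a difference of -3.25 (95% interval -4.11 to -2.40, adjusted p = 0.00033). Elovl2, an elongase of polyunsaturated fatty acids, was at 2949 ± 500.3 normalized counts (SD, n = 3) in CflarFF, 1473 ± 138 in CflarLKO, 605 ± 16.9 in non-Tg against 982 ± 23.8 in Fgf18 Tg livers. It fell by 1.00 and rose by 0.70 (edgeR adjusted p = 3.1e-05 and 0.0029), and was chosen after its values were seen. Fads1, a desaturase of the same pathway, had effects of -1.60 ± 0.21 and 0.71 ± 0.21, and its Fgf18 Tg call (adjusted p = 0.032) was lost in 6 of the 12 fits that each left out 1 library (adjusted p 0.0557 to 0.148). The difference of -2.30 (adjusted p = 0.00063) was kept in all 12.

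Dsg1c, a desmosomal cadherin, was at 113, 43.5 and 96.7 normalized counts in CflarFF, 14.7, 14.2 and 15.6 in CflarLKO, 17.7, 9.47 and 8.09 in non-Tg and 39.2, 47.8 and 30.9 in Fgf18 Tg livers. It too was apart in both experiments, in opposite directions (-2.50 ± 0.34 and 1.74 ± 0.40, adjusted p = 1.3e-05 and 0.0042). Serpina7, the thyroxine-binding globulin, was at 842, 323 and 744 in CflarFF, 115, 308 and 169 in CflarLKO, 24.3, 29.8 and 27.8 in non-Tg and 258, 298 and 253 in Fgf18 Tg livers. All CflarLKO values were below all CflarFF values, narrowly so for CflarFF replicate 2, and the Fgf18 Tg values were above those of non-Tg livers. The effects were -1.69 ± 0.39 and 3.31 ± 0.53 (difference -5.01, 95% interval -6.50 to -3.51, adjusted p = 0.0044). The CflarLKO call was lost when each experiment was fitted on its own.

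**Figure D5:**
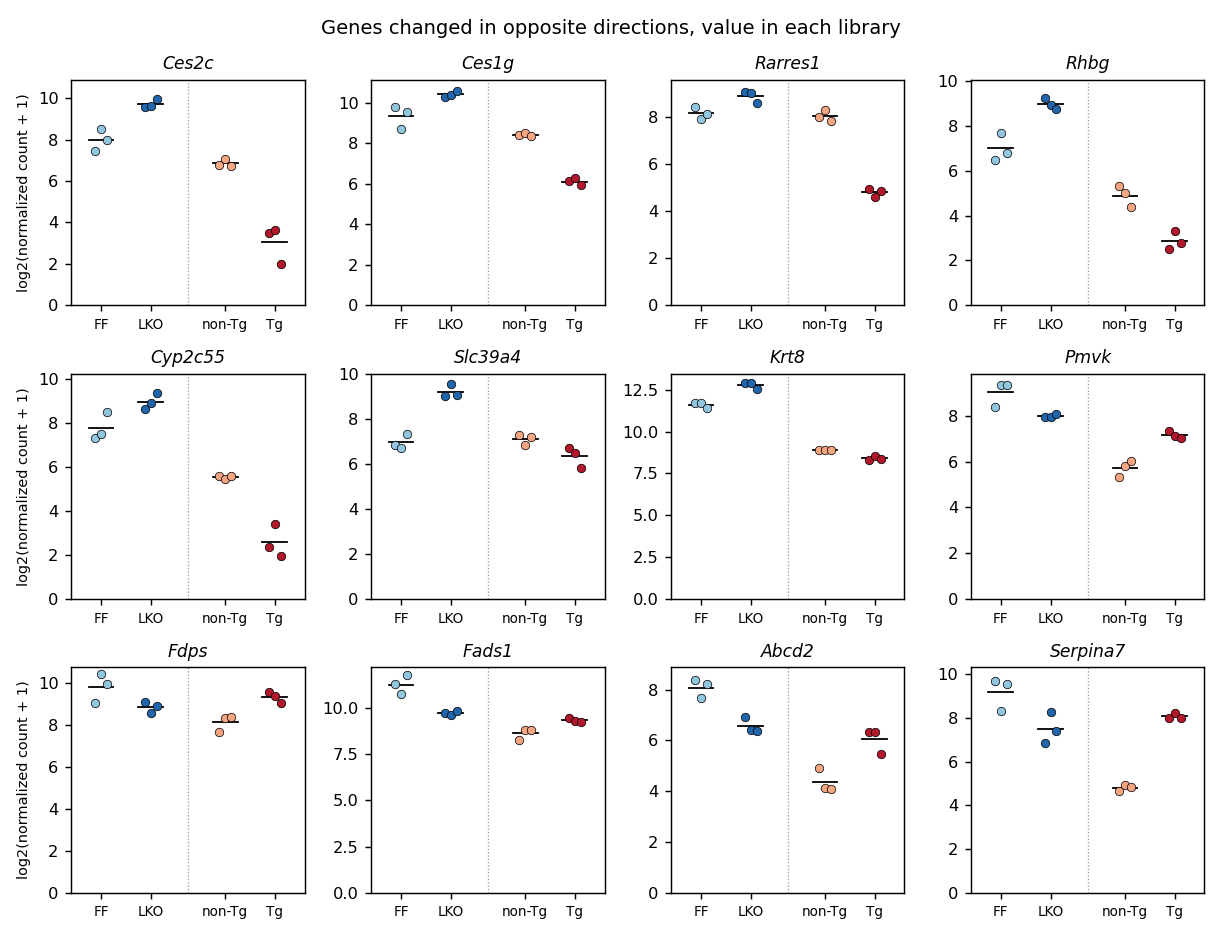
Normalized counts in each library (y axis, log2 of the normalized count plus 1) for 12 genes called in opposite directions, with 1 panel a gene, 1 point a library and bars at the group means. Levels can be compared within each experiment only. Ces2c, Ces1g and Rarres1 are higher in CflarLKO than in CflarFF and lower in Fgf18 Tg than in non-Tg livers, and Pmvk, Abcd2 and Serpina7 show the reverse.

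Some genes of cholesterol synthesis were lower with Cflar loss and higher with Fgf18. Pmvk, the phosphomevalonate kinase of the mevalonate pathway, was at 331, 647 and 659 normalized counts in CflarFF, 246, 246 and 270.3 in CflarLKO, 38.7, 55.5 and 63.6 in non-Tg and 162, 137 and 131 in Fgf18 Tg livers. The groups were apart in both experiments, with an effect of -1.10 ± 0.21 with Cflar loss and 1.46 ± 0.26 with Fgf18 (adjusted p = 0.00073 and 0.0011, difference -2.56, 95% interval -3.27 to -1.86). Of the 26 tested genes of cholesterol synthesis and uptake, 10 were lower in CflarLKO, 6 higher and 1 lower in Fgf18 Tg livers, and 3 were opposite, Pmvk and Fdps among them. Without CflarFF replicate 1, 16 were lower in CflarLKO, without NonTg replicate 1, 2 were higher in Fgf18 Tg livers, and without CflarFF replicate 2, 14 were. The difference was called below 0 in 8 of the 26 (1.78% of all genes), in 6 without NonTg replicate 1 and in 15 without CflarFF replicate 2. Of the 26, 2 had a difference above 0. Among the 20 enzymes the medians were -0.72 and 0.89 and none had a difference above 0, and among the 6 regulators and uptake genes they were -0.72 and -0.07.

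The members were not equally firm. Lss, which closes the sterol ring, was at 198, 347 and 219 normalized counts in CflarFF, 197, 176 and 202 in CflarLKO, 18.8, 31.1 and 30.1 in non-Tg and 85.6, 78.7 and 72.2 in Fgf18 Tg livers. The CflarLKO and CflarFF values overlapped and the CflarLKO effect was not called (-0.41 ± 0.18, adjusted p = 0.09). Fgf18 Tg values were all above those of non-Tg (1.59 ± 0.26, adjusted p = 0.00021, 95% interval of the difference -2.65 to -1.34, adjusted p = 0.0013). Fdps, which makes farnesyl diphosphate, had a difference of -2.25 (adjusted p = 0.026) that was lost in 6 of the 12 fits that each left out 1 library (adjusted p 0.0517 to 0.0723). Tm7sf2, a sterol reductase, fell with Cflar loss (-1.68 ± 0.17) and had an Fgf18 Tg effect of -0.02 ± 0.17 (difference -1.66, adjusted p = 0.0011). Insig1, which holds back the processing of SREBP, the factor that drives these genes, did likewise (-1.20 ± 0.19 and -0.14 ± 0.19), with a difference (adjusted p = 0.037) lost in 8 of the 12 fits that each left out 1 library (adjusted p 0.0547 to 0.0999). Tm7sf2 and Insig1 were chosen after their values were seen.

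Promoters of 4 of these genes are shown because their differences were called on the same side. Genes of sterol synthesis are known to carry a CCAAT box, the element bound by NF-Y, beside the site of SREBP. The windows are the 250 bases before the RefSeq start of the gene (GRCm38.p6), 5′ to 3′ on the strand of the gene, with CCAAT or its reverse complement ATTGG in capitals and the rest in lower case. The Pmvk window is chr3:89454291-89454540 on the plus strand, with 131 bases between the motif and the start. The Lss window is chr10:76531355-76531604 (plus strand, 57 bases), that of Tm7sf2 chr19:6067851-6068100 (minus strand, 42 bases) and that of Insig1 chr5:28071162-28071411 (plus strand, 211 bases).
Pmvk: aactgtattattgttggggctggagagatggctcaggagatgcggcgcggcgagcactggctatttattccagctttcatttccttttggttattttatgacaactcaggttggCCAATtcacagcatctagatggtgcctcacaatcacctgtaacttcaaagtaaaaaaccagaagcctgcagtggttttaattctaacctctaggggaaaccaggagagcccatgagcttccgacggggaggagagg
Lss: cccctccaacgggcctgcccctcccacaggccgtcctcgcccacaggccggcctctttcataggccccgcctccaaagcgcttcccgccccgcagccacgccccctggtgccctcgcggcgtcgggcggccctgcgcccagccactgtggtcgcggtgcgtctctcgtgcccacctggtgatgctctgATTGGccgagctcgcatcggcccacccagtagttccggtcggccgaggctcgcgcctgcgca
Tm7sf2: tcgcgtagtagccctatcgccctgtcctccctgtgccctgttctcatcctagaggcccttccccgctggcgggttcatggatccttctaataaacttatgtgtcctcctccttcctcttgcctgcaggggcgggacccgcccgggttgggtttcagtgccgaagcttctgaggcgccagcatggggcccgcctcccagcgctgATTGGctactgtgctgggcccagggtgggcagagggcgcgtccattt
Insig1: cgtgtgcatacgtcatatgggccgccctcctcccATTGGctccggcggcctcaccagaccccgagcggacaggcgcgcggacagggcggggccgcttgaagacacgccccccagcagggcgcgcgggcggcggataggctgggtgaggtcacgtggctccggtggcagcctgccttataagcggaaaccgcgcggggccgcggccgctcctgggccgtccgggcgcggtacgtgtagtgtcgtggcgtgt

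Each of these windows held 1 match. Pmvk had 2 windows in the table, and the other held none. The motif, searched on both strands and chosen after the expression values were seen, occurred in 33.8% of all 32851 windows and in at least 1 window of 37.5% of the 27025 gene symbols. Of the 26 tested cholesterol genes 18 had a window and 16 of these the motif, and of the 8 called for the difference 4 had a window and all 4 the motif. A match is a description of the sequence and the binding of a factor was not measured.

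Some genes of lipogenesis and of plasma proteins made by the liver fell more with Cflar loss than with Fgf18. Of 21 tested lipogenesis genes 17 were lower and 1 higher in CflarLKO and 2 were lower and 2 higher in Fgf18 Tg livers, with medians of -0.88 and 0.05, whereas with library size alone 9 were lower and 1 higher in the former and 1 lower and 11 higher in the latter. The difference was below 0 in 6 of them, in 3 without NonTg replicate 1, NonTg replicate 2 or Fgf18 Tg replicate 1 and in 10 without CflarFF replicate 2. Without NonTg replicate 1 none was higher in Fgf18 Tg livers. Me1, the malic enzyme that makes NADPH for lipid synthesis, fell in both models (-1.20 ± 0.18 and -1.05 ± 0.21, adjusted p = 4.5e-05 and 0.0018, difference -0.15, 95% interval -0.72 to 0.42). Of 32 tested complement and coagulation genes, 29 were lower and 1 higher in CflarLKO and 9 were lower in Fgf18 Tg livers, all 9 in both (4 without NonTg replicate 2), whereas with library size alone 22 were lower and 2 higher in the former and 1 lower and 4 higher in the latter. The difference was below 0 in 7 of the 32, in 2 without NonTg replicate 3 and in 16 without CflarFF replicate 2.

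Mbl2, the mannose-binding lectin that starts complement activation, was at 8161, 4378 and 5935 normalized counts in CflarFF, 1720, 1418 and 1576 in CflarLKO, 1084, 1070 and 839 in non-Tg and 1062, 1041 and 773 in Fgf18 Tg livers. The CflarLKO values were all below those of CflarFF, while Fgf18 Tg and non-Tg values overlapped (-1.97 ± 0.19, adjusted p = 8.9e-07, against -0.06 ± 0.20, adjusted p = 0.9, difference -1.92, 95% interval -2.49 to -1.34, adjusted p = 0.001). Itih4, an inhibitor-family plasma protein, and Serpina6, the corticosteroid-binding globulin, had differences of -1.62 and -1.53 (adjusted p = 0.0029 and 0.0019), and Mbl2, Itih4 and Serpina6 kept these calls in all 12 fits. Cbs, which starts the transsulfuration of homocysteine, fell by 1.10 with Cflar loss and had an Fgf18 Tg effect of -0.06 ± 0.15 (difference -1.05, adjusted p = 0.01), the latter 0.43 with library size alone. Sult1c2, a sulfotransferase, fell by 2.31 with Cflar loss and had an Fgf18 Tg effect of 0.81 ± 0.49 (difference -3.12, adjusted p = 0.0054).

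In other genes the CflarLKO effect and the difference were called and the Fgf18 Tg effect was not. Avpr1a, a vasopressin receptor of hepatocytes, was at 909, 328 and 831 normalized counts in CflarFF, 49.7, 91.3 and 67.3 in CflarLKO, 56.4, 32.5 and 49.7 in non-Tg and 82, 94.7 and 76.6 in Fgf18 Tg livers. It fell in every CflarLKO library (-3.32 ± 0.37, adjusted p = 9.7e-05), the Fgf18 Tg effect was 0.86 ± 0.44 (adjusted p = 0.22, called in 3 of 23 alternatives) and the difference -4.18 (95% interval -5.46 to -2.90, adjusted p = 0.0043). Sdc4, a heparan sulfate proteoglycan that binds growth factors, had effects of -1.24 ± 0.14 and 0.05 ± 0.15 (difference -1.29, adjusted p = 0.0014). Ecm1, a secreted matrix protein of stellate cells and hepatocytes, had -0.90 ± 0.17 and 0.55 ± 0.20 (difference -1.45, adjusted p = 0.0042). Its Fgf18 Tg effect was near the threshold (adjusted p = 0.065) and was called in 9 of the 23 alternatives, and its CflarLKO effect was not called with library size alone (-0.47). Procr, the protein C receptor, was at 7.68, 7.05 and 8.26 in CflarFF, 423, 389.9 and 209 in CflarLKO, 3.32, 4.06 and 3.47 in non-Tg and 3.57, 1.77 and 5.89 in Fgf18 Tg livers. It was many times higher in every CflarLKO library and mixed between non-Tg and Fgf18 Tg libraries (difference 5.50, 95% interval 3.88 to 7.12, adjusted p = 0.0014). Dpt, dermatopontin, a matrix protein of portal fibroblasts, rose by 2.25 ± 0.21 with Cflar loss, with an Fgf18 Tg effect of -0.08 ± 0.38 (difference 2.33, adjusted p = 0.0057). Avpr1a, Sdc4, Ecm1, Procr and Dpt kept the call for the difference in all 12 fits.

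Some genes of detoxification fell more with Fgf18 than with Cflar loss. Of 23 tested targets of NRF2, the factor that drives antioxidant genes, 7 were higher and 6 lower in CflarLKO while in Fgf18 Tg livers 1 was higher and 13 were lower. The medians were 0.00 and -0.63. With library size alone 12 were higher and 3 lower in CflarLKO and 2 higher and 7 lower in Fgf18 Tg livers. The difference was above 0 in 4 of them and below in none, and above in 8 without CflarFF replicate 2. The other lists of detoxification were mixed. Of 39 tested genes of phase II conjugation the difference was above 0 in 4 (1 without CflarLKO replicate 2) and below in 6 (2 without NonTg replicate 1). Of the 42 P450 genes it was above 0 in 4 and below in 4 (1 without NonTg replicate 2, and 9 without CflarFF replicate 2). Ugdh, which makes the UDP-glucuronate used for conjugation, was at 2119, 3773 and 2373 normalized counts in CflarFF, 4062, 3823 and 3957 in CflarLKO, 279, 233 and 207 in non-Tg and 102, 109.7 and 60.4 in Fgf18 Tg livers. Every Fgf18 Tg value was below every non-Tg value (-1.37 ± 0.23, adjusted p = 0.00065), the CflarLKO effect was 0.52 ± 0.20 (adjusted p = 0.056) and the difference 1.89 (95% interval 1.25 to 2.54, adjusted p = 0.0024). Ephx1, an epoxide hydrolase, and Aox1, an aldehyde oxidase, had differences of 1.39 and 1.94 (adjusted p = 0.0035 and 0.0018). Txnrd1, a thioredoxin reductase chosen after its values were seen, had a difference of 1.20 (adjusted p = 0.0021).

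Several further genes fell more with Fgf18 than with Cflar loss. Cyp2a5, a coumarin hydroxylase, was at 11090, 15320 and 10390 normalized counts in CflarFF, 18140, 23110 and 14970 in CflarLKO, 755, 835 and 1162 in non-Tg and 96.3, 173 and 63.3 in Fgf18 Tg livers. It fell in every Fgf18 Tg library (-3.03 ± 0.30, adjusted p = 3.7e-05), while CflarLKO and CflarFF values overlapped (0.61 ± 0.29, adjusted p = 0.11, difference 3.64, 95% interval 2.74 to 4.54, adjusted p = 0.00074). Abcg2, a canalicular efflux pump, was at 662, 658 and 826 in CflarFF, 768, 694 and 703 in CflarLKO, 173, 199 and 178 in non-Tg and 64.8, 51.3 and 66.3 in Fgf18 Tg livers. Its values overlapped in the CDE diet experiment and were apart in the other (0.01 ± 0.13 against -1.59 ± 0.16, difference 1.61, 95% interval 1.18 to 2.03, adjusted p = 0.00026). Cpt2, which completes the import of fatty acids into mitochondria, had effects of -0.11 ± 0.12 (0.33 with library size alone) and -1.22 ± 0.13 (difference 1.10, adjusted p = 0.0015). Slc1a2, a glutamate transporter of hepatocytes around the central vein, had -0.38 ± 0.18 and -2.42 ± 0.20 (difference 2.04, adjusted p = 0.0004). Sult5a1, a sulfotransferase, fell by 3.47 with Fgf18 and had a CflarLKO effect of -0.25 ± 0.30 (difference 3.22, adjusted p = 0.0015). Cyp2a5, Abcg2, Cpt2, Slc1a2, Sult5a1, Ugdh, Ephx1 and Aox1 kept the call for the difference in all 12 fits, whereas Glul, the glutamine synthetase of the same zone as Slc1a2, lost it in 8 of the 12 fits that each left out 1 library (adjusted p 0.0612 to 0.107). Of 19 tested genes of that zone, 3 had a called difference above 0 and 2 below (1 without CflarFF replicate 1).

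Most genes of cell division and of the ductular reaction were called higher with Cflar loss and few with Fgf18, and the difference was called for 1 of them, Krt8. Of 36 tested cell cycle genes 31 were higher in CflarLKO and 3 in Fgf18 Tg livers (1 without NonTg replicate 2), with medians of 1.45 and 0.67. Over all genes tested 19.4% and 7.23% were higher, so the count in Fgf18 Tg livers was near the share of all genes. No cell cycle gene was called for the difference by edgeR, DESeq2 or limma-trend, and at an unadjusted p under 0.05 edgeR gave 3 above and 0 below. Top2a, a topoisomerase of dividing cells, was at 40.6, 43.5 and 51.9 normalized counts in CflarFF, 96.6, 141 and 187 in CflarLKO, 7.75, 5.41 and 2.31 in non-Tg and 13.1, 24.8 and 14.7 in Fgf18 Tg livers. Both models were above their controls in every library (1.63 ± 0.27 and 1.74 ± 0.51, adjusted p = 9.9e-05 and 0.017, difference -0.12, 95% interval -1.32 to 1.09). The Fgf18 Tg call was lost without NonTg replicate 2, NonTg replicate 3 or Fgf18 Tg replicate 2 (adjusted p 0.0523 to 0.0931).

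Of 36 tested genes of bile ducts and the ductular reaction, 29 were higher in CflarLKO livers (19.4% of all genes tested). In Fgf18 Tg livers 7 were higher and 1 was lower (7.23% and 8.81% of all genes tested), and 5 were higher in both. The difference was above 0 in 1, Krt8, in 4 without CflarFF replicate 2 and in 6 by limma-trend, and Krt19 was among these in both cases. Without NonTg replicate 1, 2 were higher in Fgf18 Tg livers, both also in CflarLKO, and without CflarFF replicate 2, 11 and 9 were. Sox9, a transcription factor of ductular cells, was at 155, 153 and 64.9 normalized counts in CflarFF, 279.9, 288 and 309 in CflarLKO, 8.85, 6.76 and 10.4 in non-Tg and 16.6, 9.73 and 7.37 in Fgf18 Tg livers. CflarLKO values were all above those of CflarFF (1.23 ± 0.24, adjusted p = 0.00075), and Fgf18 Tg and non-Tg values overlapped (0.48 ± 0.49), with an interval of the difference of -0.41 to 1.90. Krt19, a keratin of bile ducts, had at most 3.54 normalized counts in the normal diet experiment and a difference of 2.63 with an interval of -0.43 to 5.68. Spp1, osteopontin, made by ductular cells and macrophages, rose by 2.29 ± 0.48 and 2.30 ± 0.52 (adjusted p = 0.0065 and 0.021), the latter call being lost in 4 of the 12 fits that each left out 1 library (adjusted p 0.0581 to 0.0786). Sox9, Krt19 and Spp1 were chosen as cell type markers. The sum of the cholangiocyte markers Krt7, Krt19, Epcam, Sox9 and Spp1 was 1150 to 3920 in CflarFF, 7800 to 11200 in CflarLKO and, with the normal diet, 101 to 156 in non-Tg against 428 to 636 in Fgf18 Tg livers, and its part in these effects was not tested. All 5 markers were called higher in CflarLKO livers, and in Fgf18 Tg livers Spp1 alone was.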

How the data were processed

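Polyadenylated RNA of whole liver from 12 mice was sequenced. Reads were aligned by the authors with Bowtie2 to GRCm39 (mm39), per the labels, while the counting tool and annotation are not given in the sources used here. The authors deposited read counts per gene for each experiment and a normalized signal made with TCC-GUI, which equals the counts times 1 constant per library. The counts were used for the main tests and the deposited signal for 1 alternative. No per-sample column was left unmapped (0).

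The tables were joined by symbol, genes with low counts were removed (filterByExpr of edgeR, minimum count 10 and total 15), and 1 model with 4 group means was fitted (TMM, glmQLFit and glmQLFTest, R 4.3.3, edgeR 4.0.16). The difference was a contrast of the 4 means, with a 95% interval for each gene. Shared effects were called within a factor of 2 where that interval lay within 1 log2 unit of 0 on either side. Adjusted p-values of the reported fit are over 13956 genes. The fits that left out 1 library were filtered again, and their p-values are adjusted over the 13404 to 14994 genes each of them tested. Each gene has 1 variance, fitted over all 12 libraries with 3 mice per group and moderated across genes. The p-values of an effect therefore also rest on the spread in the other experiment. Scripts were tested on simulated data. Genes with a group at 0 counts (335) have no interval and, in the text, a fold against a floor of 3 counts over the group.

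Named genes were the targeted genes, the 10 largest differences and 10 largest shared effects in each direction, up to 15 opposite genes per direction and, from each list, the most abundant member, up to 3 members called for the difference in each direction and up to 2 shared members, at 20 or more mean normalized counts for the rules over all genes. Others are said to be chosen after their values were seen. The genes, the 58 lists and the tests were chosen with earlier results of these data known. Alternatives were RLE size factors, library size alone, TMM within each experiment, DESeq2 1.42.0, limma 3.58.1 (trend) on the deposited signal (pseudocount 1), separate fits, other filters, thinned CDE diet counts, a replicate block, leaving out each library and a threshold of 0.01. Some named genes are not reported here. Promoters came from RefSeq tables of GRCm38.p6.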

Additional observations from a re-analysis of the deposited data

How the results depend on the processing

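With library size alone there were 6224 genes higher and 742 lower in CflarLKO, 3623 higher and 237 lower in Fgf18 Tg livers, 2476 higher and 91 lower in both, and 61 opposite with the CflarLKO effect lower. Limma-trend called 1572 genes higher in Fgf18 Tg livers. Fitting each experiment on its own gave 547 differences below and 12 and 54 opposite genes (CflarLKO higher and lower), and no filter gave 389 differences below and 13 opposite genes with CflarLKO higher. Requiring 10 counts in 3 libraries of each experiment gave 1626 genes higher in CflarLKO, and thinning the CDE diet counts 1769. An adjusted p under 0.01 gave 1472 lower in CflarLKO, 455 higher and 537 lower in Fgf18 Tg livers, 55 differences above and 74 below, 340 and 287 shared, and 10 and 10 opposite genes.

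Leaving out 1 library gave 1935 to 2806 genes higher and 1991 to 2555 lower in CflarLKO, 596 to 1183 and 755 to 1421 in Fgf18 Tg livers, 88 to 464 differences above and 134 to 611 below, 459 to 815 and 462 to 835 shared, and 13 to 43 and 14 to 46 opposite genes. Among effects of the named genes that were called either as reported or under the alternative, Cpt2 turned to 0.33 in the CflarLKO effect, Krt8 to 0.0020 and Cbs to 0.43 in the Fgf18 Tg effect, each with library size alone. Uncalled values of other named genes also crossed 0, whereas none of the 432 called differences changed sign. The replicate block lost, among others, the differences of Serpina7 and Avpr1a and the CflarLKO effect of Serpina7. The RLE, within-experiment TMM and DESeq2 counts were each within 1.5 times the reported ones. Same-numbered libraries of an experiment did not deviate together (r -0.114, -0.108 and 0.0141 for the CDE diet, -0.0233, 0.0202 and 0.0524 for the normal diet). With 3 libraries a group, these values cannot decide whether the numbers pair the mice. A replicate block gave 2506 and 2088 CflarLKO calls, 855 and 1073 Fgf18 Tg calls, 149 and 194 differences, 605 and 622 shared and 20 and 24 opposite genes. The cause of these changes was not tested. The normal diet libraries held fewer reads. How often a difference in a gene with few reads in non-Tg livers went undetected was not tested.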

Other observations

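Some sex-biased liver genes were called for the difference between the models, whose animals also differed in sex. Of 23 tested male-biased genes 7 were lower in CflarLKO (16.9% of all genes tested) and 9 in Fgf18 Tg livers (8.81%). Their medians were -0.98 and -1.63, and the difference was above 0 in 5 and below 0 in 1 (1.32% and 1.78% of all genes tested). Without CflarFF replicate 2, 17 were lower in Fgf18 Tg livers and the difference was above 0 in 11, and without NonTg replicate 1 it was above 0 in 3. Of 20 tested female-biased genes 12 were lower and 2 higher in CflarLKO livers (16.9% and 19.4% of all genes tested). In Fgf18 Tg livers 2 were lower and 2 higher, near the shares of all genes (8.81% and 7.23%). The medians were -1.71 and 0.10. Without CflarLKO replicate 1 none was higher in CflarLKO, and without NonTg replicate 1 only 1 was higher in Fgf18 Tg livers. Cyp4a12b, a male-biased hydroxylase of fatty acids, was at 211, 294 and 418 normalized counts in CflarFF, 524, 492 and 336 in CflarLKO, 278, 437 and 273 in non-Tg and 42.2, 18.6 and 29.5 in Fgf18 Tg livers. Its values overlapped in the CDE diet experiment and were apart in the other, where it fell by 3.40 (difference 3.96, 95% interval 2.92 to 4.99, adjusted p = 0.0013). Mup3, a major urinary protein, was at 2389, 1038 and 1577 in CflarFF, 252, 226 and 368 in CflarLKO, 32850, 33790 and 40050 in non-Tg and 24700, 23270 and 18440 in Fgf18 Tg livers. It was lower in every library of both models, without a call in Fgf18 Tg livers (-2.57 ± 0.25, adjusted p = 1.7e-06, and -0.68 ± 0.25, adjusted p = 0.071, difference -1.88, adjusted p = 0.007).

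Of 19 tested genes of sinusoidal endothelium 5 were higher in CflarLKO and 4 lower in Fgf18 Tg livers, against 19.4% and 8.81% of all genes tested. With library size alone 9 and 4 were higher and none was lower in either. Without CflarFF replicate 1, 3 were higher in CflarLKO, and without NonTg replicate 1, 1 was lower in Fgf18 Tg livers. Plvap, a protein of capillary fenestrae, was at 289.7, 416 and 279.5 normalized counts in CflarFF, 488, 278 and 273 in CflarLKO, 34.3, 31.1 and 41.6 in non-Tg and 190.2, 165 and 95.8 in Fgf18 Tg livers. Plvap is not in the sinusoidal list. Its values overlapped in the CDE diet experiment and rose with Fgf18 (2.10 ± 0.34, adjusted p = 0.0011), and the difference (adjusted p = 0.024) was lost in 5 of the 12 fits that each left out 1 library (adjusted p 0.0603 to 0.0822). Flt4, a receptor of lymphatic and sinusoidal endothelium, rose with Cflar loss (1.04 ± 0.23, adjusted p = 0.0015) and had an Fgf18 Tg effect of -1.01 ± 0.41 (adjusted p = 0.1), with a difference (adjusted p = 0.02) lost in 4 of the 12 fits that each left out 1 library (adjusted p 0.0535 to 0.0875). Bhlhe41, a repressor of the circadian clock, had no reads in CflarFF and 41 in CflarLKO livers, at least 10.5-fold higher against a floor of 3 reads over the group, and was at 176, 107 and 184 normalized counts in non-Tg and 181, 161 and 172 in Fgf18 Tg livers.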
